A study of Bos taurus with 56 samples.

Results

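The genes described here are 6 of the 20791 Ensembl bovine IDs listed in the deposited count tables, followed across diet and breed in back muscle. They were selected on the values described here: each stood among the genes with the smallest unadjusted p for high against low dietary energy in an earlier fit of the same counts. ENSBTAG00000003177 was listed for the diet contrast in Bonsmara, ENSBTAG00000030483 for that in Nguni, ENSBTAG00000012850 and ENSBTAG00000015127 for diet averaged over breeds, ENSBTAG00000001058 for Bonsmara and the average, and ENSBTAG00000012208 for Nguni and the average. In those contrasts edgeR called 0 of 13219 tested genes at an adjusted p under 0.05, so the diet differences below are descriptions and carry no test. All 6 genes passed the filter on low counts. The count tables do not pair IDs with names, and the cattle gene table at hand, with 37063 genes, matched 0 of the IDs, so no function is given for any of them.

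RNA was sequenced from the Longissimus dorsi of Nguni bulls, a Sanga breed, and Bonsmara bulls, a Sanga-related breed. All spent 120 days in a feedlot, and the diets held 12.0 MJ (high energy) or 10.9 MJ (low energy) of metabolizable energy in each kg, and no group without feedlot feeding was labelled. Sample titles such as B6_1, B6_2 and B6_3 share a stem, here B6, and the 42 libraries with counts fell on 14 stems: 3 in Bonsmara on high energy, 3 in Bonsmara on low energy, 5 in Nguni on high energy and 3 in Nguni on low energy. Its 3 libraries were summed and a stem was taken for 1 animal, as no label says outright, so n counts stems and any p-value measures the spread between these samples.

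Metabolizable energy is the part of the feed energy left after losses in faeces, urine and gases, and it is what an animal can use for maintenance and growth. The Longissimus dorsi is the long muscle of the back and is a common reference muscle for beef quality. It holds muscle fibres together with fat cells, vessels and connective tissue, and the fat laid down between its fibres is seen as marbling. In such bulk tissue, fewer cells of a type and less RNA per cell cannot be told apart, and without gene names no marker of any cell type could be read.

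Library totals ran from 8156040 to 78224599 counts and stem totals from 34456677 to 101757197, and library B6_1 held 76.9% of the counts of its stem. Labels and tables disagree on 2 stems in Nguni: N1 is labelled low energy but stands among the high energy columns of the tables, and N11 is labelled high energy but stands among the low energy columns. The labels were followed, and each diet value in Nguni is also given with N1 and N11 exchanged. In addition, some libraries went against their stems, B6_2 and B11_2 among them.

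B6 is labelled high energy and B11 low energy, both Bonsmara. Over 4882 genes with a mean of at least 10 CPM (counts scaled to a common library total), log2 CPM was centred on each gene's mean over all libraries and correlated between libraries. This is a description, since the genes are not independent, and the check was made after the values were seen. Library B6_2 had r = 0.34 and 0.29 with the other libraries of B6, and r = 0.68 and 0.75 with B11_1 and B11_3. Library B11_2 had r = 0.19 and 0.24 with the other libraries of B11, and r = 0.71 and 0.60 with B6_1 and B6_3. So each of these libraries was more like the stem of the opposite diet label than its own, against a median r of 0.63 within stems and -0.077 between stems. By the same reading, N37_1 and N1_3 had lower r with the libraries of their own stems (at most 0.40 and 0.30) than with several libraries of other stems. Of the 42 libraries, 4 were below at least 2 libraries of another stem in this way. In Nguni, N008_3 and N215_2 were each most like the other (r = 0.67) and reached at most 0.60 and 0.56 with their own stems. Counted by genes at least 4-fold above or below both other libraries of the stem, N33_1 stood farthest apart. It had 88 of the 4882 genes, beside 48 in N215_2, 36 in N37_1, 35 in N008_3, 27 in B6_2 and 25 in B11_2 (median 2). N33_1, labelled low energy, had r = 0.30 to 0.71 with its own stem and 0.70 with N37_1. It was left out only together with its whole stem. No library was moved to another group. Fitted diet differences in Bonsmara and the spread within stems are given with and without B6_2 and B11_2. Bonsmara group means, intraclass correlations and correlations between genes are given only with them. Whether labels were exchanged was not tested.

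**Figure D1:**
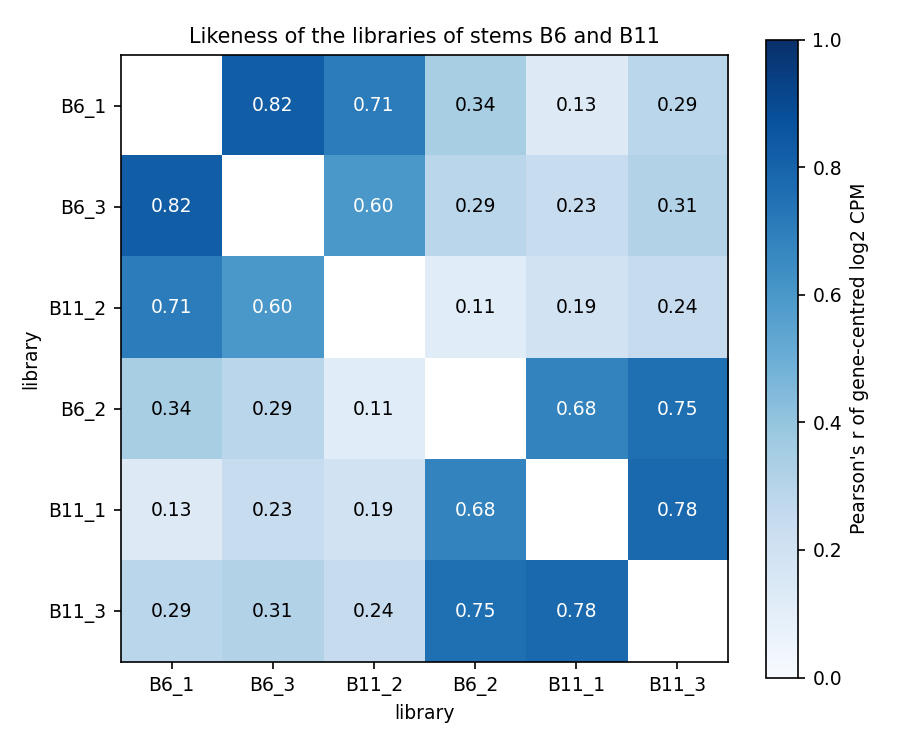
Pearson's r of gene-centred log2 CPM over 4882 genes between the 6 libraries of stems B6 (labelled high energy) and B11 (labelled low energy), with darker cells for higher r. B11_2 stands with B6_1 and B6_3 (r = 0.60 to 0.82 among these 3), and B6_2 stands with B11_1 and B11_3 (r = 0.68 to 0.78 among these 3).

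ENSBTAG00000001058, ENSBTAG00000012850 and ENSBTAG00000030483 had higher mean levels on high energy in both breeds. ENSBTAG00000001058 had 122 CPM in B6, 146 in B25 and 138 in B199 on high energy, and 88.9 in B11, 67.8 in B51 and 66.2 in B126 on low energy. All 3 Bonsmara stems on high energy lay above all 3 on low energy. In Nguni on high energy it had 133.8 CPM in N35, 126.1 in N008, 153 in N11, 133 in N14 and 138 in N37, and on low energy 133.6 in N33, 79.3 in N215 and 92.7 in N1. N33 reached the level of the high energy stems, so the Nguni groups overlapped, while N215 and N1 lay below all 5. The group means were 137 ± 10 CPM in Nguni and 135 ± 12 in Bonsmara on high energy (SD, n = 5 and 3), and 102 ± 28 in Nguni and 74.3 ± 12.7 in Bonsmara on low energy (n = 3 each). The 2 highest means differed by less than either SD, and the 2 lowest by less than the SD in Nguni.

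The fitted log2 difference of ENSBTAG00000001058, high over low energy, was 0.87 (SE 0.22) in Bonsmara and 0.43 (SE 0.19) in Nguni. Without B6_2 and B11_2 the value in Bonsmara was 0.95 (SE 0.21). In single libraries, B6_2 had 91.7 CPM where the other libraries of B6 had 123 and 113, and B11_2 had 102 CPM where those of B11 had 72.6 and 83.0. The Nguni value depended on 2 stems of the low energy group, with 0.68 without N33 and 0.28 without N215. After the exchange of N1 and N11, the Nguni means were 125 ± 18 CPM (high energy) and 122 ± 38 CPM (low energy), and the log2 difference was 0.03 (SE 0.22).

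ENSBTAG00000012850 was counted far less often, with 10 to 85 counts per stem. In Bonsmara it had 0.835 CPM in B6, 1.03 in B25 and 0.358 in B199 on high energy, against 0.513 in B11, 0.232 in B51 and 0.203 in B126 on low energy. The groups overlapped through B199, which lay below B11. In Nguni it had 0.857 CPM in N35, 1.55 in N008, 1.58 in N11, 0.856 in N14 and 0.990 in N37 on high energy, against 0.489 in N33, 0.219 in N215 and 0.370 in N1 on low energy. Here all 5 stems on high energy lay above all 3 on low energy, and N008 and N11 were highest. Means were 1.17 ± 0.37 CPM in Nguni on high energy, 0.741 ± 0.346 in Bonsmara on high energy, 0.359 ± 0.136 in Nguni on low energy and 0.316 ± 0.171 in Bonsmara on low energy (SD, n = 5, 3, 3 and 3). The 2 low energy means differed by less than either SD.

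The log2 difference of ENSBTAG00000012850 was 1.25 (SE 0.53) in Bonsmara and 1.71 (SE 0.49) in Nguni. Without libraries B6_2 and B11_2, B11 fell to 0.353 CPM and B6 stood at 0.901, and the log2 difference in Bonsmara was 1.57 (SE 0.51). The Bonsmara groups then no longer overlapped, but B199, with 17 counts, lay barely above B11, whose remaining 7 counts all came from B11_1. B11_2 had carried 0.767 CPM, while B11_3 had no count, which allows up to 0.278 CPM by a limit of 3 counts. Placed as in the tables, N1 and N11 gave Nguni means of 0.925 ± 0.422 CPM (high energy) and 0.763 ± 0.722 CPM (low energy), with a log2 difference of 0.29 (SE 0.61).

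ENSBTAG00000030483 had the fewest counts of the 6 genes, 2 to 50 per stem. In Bonsmara it had 0.588 CPM in B6, 0.476 in B25 and 0.379 in B199 on high energy, against 0.288 in B11, 0.279 in B51 and 0.224 in B126 on low energy. In Nguni it had 0.535 CPM in N35, 0.456 in N008, 0.981 in N11, 0.407 in N14 and 1.02 in N37 on high energy, against 0.210 in N33, 0.0398 in N215 and 0.162 in N1 on low energy. Every high energy stem lay above every low energy stem in both breeds, and the 8 high energy stems together lay above the 6 low energy stems. The gap was small in Bonsmara, where B199 at 0.379 CPM rested on 18 counts and B11 at 0.288 CPM on 9. Means were 0.679 ± 0.296 CPM in Nguni on high energy (n = 5), 0.481 ± 0.105 in Bonsmara on high energy, 0.264 ± 0.035 in Bonsmara on low energy and 0.137 ± 0.088 in Nguni on low energy (SD, n = 3 each).

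The log2 difference of ENSBTAG00000030483 was 0.87 (SE 0.55) in Bonsmara and 2.33 (SE 0.56) in Nguni. It was 0.85 (SE 0.57) in Bonsmara without B6_2 and B11_2, and the groups there did not overlap. In Nguni it was 1.86 without N215, the stem with 2 counts, and 2.74 without N33. Exchanging N1 and N11 gave Nguni means of 0.516 ± 0.313 CPM (high energy) and 0.410 ± 0.501 CPM (low energy), the groups overlapped, and the log2 difference was 0.35 (SE 0.73). N11 at 0.981 CPM was then the highest low energy stem.

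ENSBTAG00000015127, ENSBTAG00000012208 and ENSBTAG00000003177 had lower mean levels on high energy. ENSBTAG00000015127 had 6.59 CPM in B6, 16.8 in B25 and 6.21 in B199 on high energy, against 15.1 in B11, 21.0 in B51 and 23.0 in B126 on low energy. B25 lay above B11, so the groups overlapped in Bonsmara. In Nguni it had 7.75 CPM in N35, 12.8 in N008, 6.42 in N11, 6.91 in N14 and 10.5 in N37 on high energy, against 16.4 in N33, 18.2 in N215 and 26.96 in N1 on low energy. All 3 Nguni stems on low energy lay above all 5 on high energy. Means were 20.5 ± 5.6 CPM in Nguni and 19.7 ± 4.1 in Bonsmara on low energy, and 9.87 ± 6.02 in Bonsmara and 8.87 ± 2.69 in Nguni on high energy (SD, n = 3, 3, 3 and 5), so within each diet the breeds differed by less than either SD.

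Libraries B6_2 and B11_2 stood apart for this gene. ENSBTAG00000015127 had 20.7 CPM in B6_2 against 3.92 and 2.98 in the other libraries of B6, and 5.03 CPM in B11_2 against 19.1 and 21.6 in those of B11. With these libraries left out, B6 stood at 3.99 CPM and B11 at 20.8, and all 3 Bonsmara stems on low energy lay above all 3 on high energy. The log2 difference in Bonsmara was -1.0003 (SE 0.39) with them and -1.27 (SE 0.43) without them. B25 also moved it, to -1.63 when that stem was left out. In Nguni the log2 difference was -1.21 (SE 0.34), and library N33_1 of the low energy stem N33 had 4.68 CPM where the others had 20.5 and 21.3. After the exchange of N1 and N11, the Nguni means were 12.98 ± 8.15 CPM (high energy) and 13.7 ± 6.3 CPM (low energy), and the log2 difference was -0.08 (SE 0.47).

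ENSBTAG00000012208 had 1.62 CPM in B6, 0.397 in B25 and 1.18 in B199 on high energy, against 3.24 in B11, 3.30 in B51 and 1.16 in B126 on low energy. B126 lay between the high energy stems, and the groups overlapped. In Nguni it had 0.364 CPM in N35, 0.529 in N008, 0.981 in N11, 0.813 in N14 and 1.84 in N37 on high energy, against 9.72 in N33, 3.28 in N215 and 2.89 in N1 on low energy. All 3 Nguni stems on low energy lay above all 5 on high energy. Means were 5.30 ± 3.84 CPM in Nguni and 2.57 ± 1.22 in Bonsmara on low energy, and 1.07 ± 0.62 in Bonsmara and 0.906 ± 0.576 in Nguni on high energy (SD, n = 3, 3, 3 and 5). The 2 low energy means differed by less than the SD in Nguni, and the 2 high energy means by less than either SD.

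The log2 difference of ENSBTAG00000012208 was -1.25 (SE 0.67) in Bonsmara and -2.55 (SE 0.58) in Nguni. It had 4.64 CPM in B6_2 against 1.03 and 0.994 in the other libraries of B6, and 0.597 CPM in B11_2 against 4.04 and 5.19 in those of B11. Without these libraries B6 stood at 1.07 CPM and B11 at 4.74, and the log2 difference in Bonsmara was -1.79 (SE 0.68), with the groups still overlapping through B126. It was -0.86 in Bonsmara without B25, and -1.77 in Nguni without N33. Placed as in the tables, N1 and N11 gave Nguni means of 1.29 ± 1.06 CPM (high energy) and 4.66 ± 4.53 CPM (low energy), and the log2 difference was -1.86 (SE 0.73). Of the 6 genes this one kept the largest difference in Nguni under that pairing, although its groups then overlapped.

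ENSBTAG00000003177 had 3.9997 CPM in B6, 4.46 in B25 and 4.82 in B199 on high energy, against 5.25 in B11, 40.4 in B51 and 16.3 in B126 on low energy. All 3 Bonsmara stems on low energy lay above all 3 on high energy, but B11 only by a narrow margin. In Nguni it had 5.59 CPM in N35, 5.42 in N008, 7.28 in N11, 2.93 in N14 and 3.82 in N37 on high energy, against 5.38 in N33, 8.29 in N215 and 6.01 in N1 on low energy, and the groups overlapped. The level of B51 and B126 was not reached by any of the 8 Nguni stems or by any Bonsmara stem on high energy. Means were 20.7 ± 17.96 CPM in Bonsmara on low energy (n = 3), 6.56 ± 1.53 in Nguni on low energy (n = 3), 5.01 ± 1.69 in Nguni on high energy (n = 5) and 4.43 ± 0.41 in Bonsmara on high energy (SD, n = 3), and each differed from the next in this order by no more than the larger of their SDs.

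The log2 difference of ENSBTAG00000003177 was -2.22 (SE 0.54) in Bonsmara and -0.39 (SE 0.46) in Nguni. In Nguni it was -0.18 without N215 and -0.55 without N11. In Bonsmara it was -1.29 without B51, -2.72 without B11 and -2.30 (SE 0.52) without libraries B6_2 and B11_2. The exchange of N1 and N11 gave -0.56 (SE 0.45) in Nguni, with means of 4.76 ± 1.31 CPM (high energy) and 6.98 ± 1.48 CPM (low energy).

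**Figure D2:**
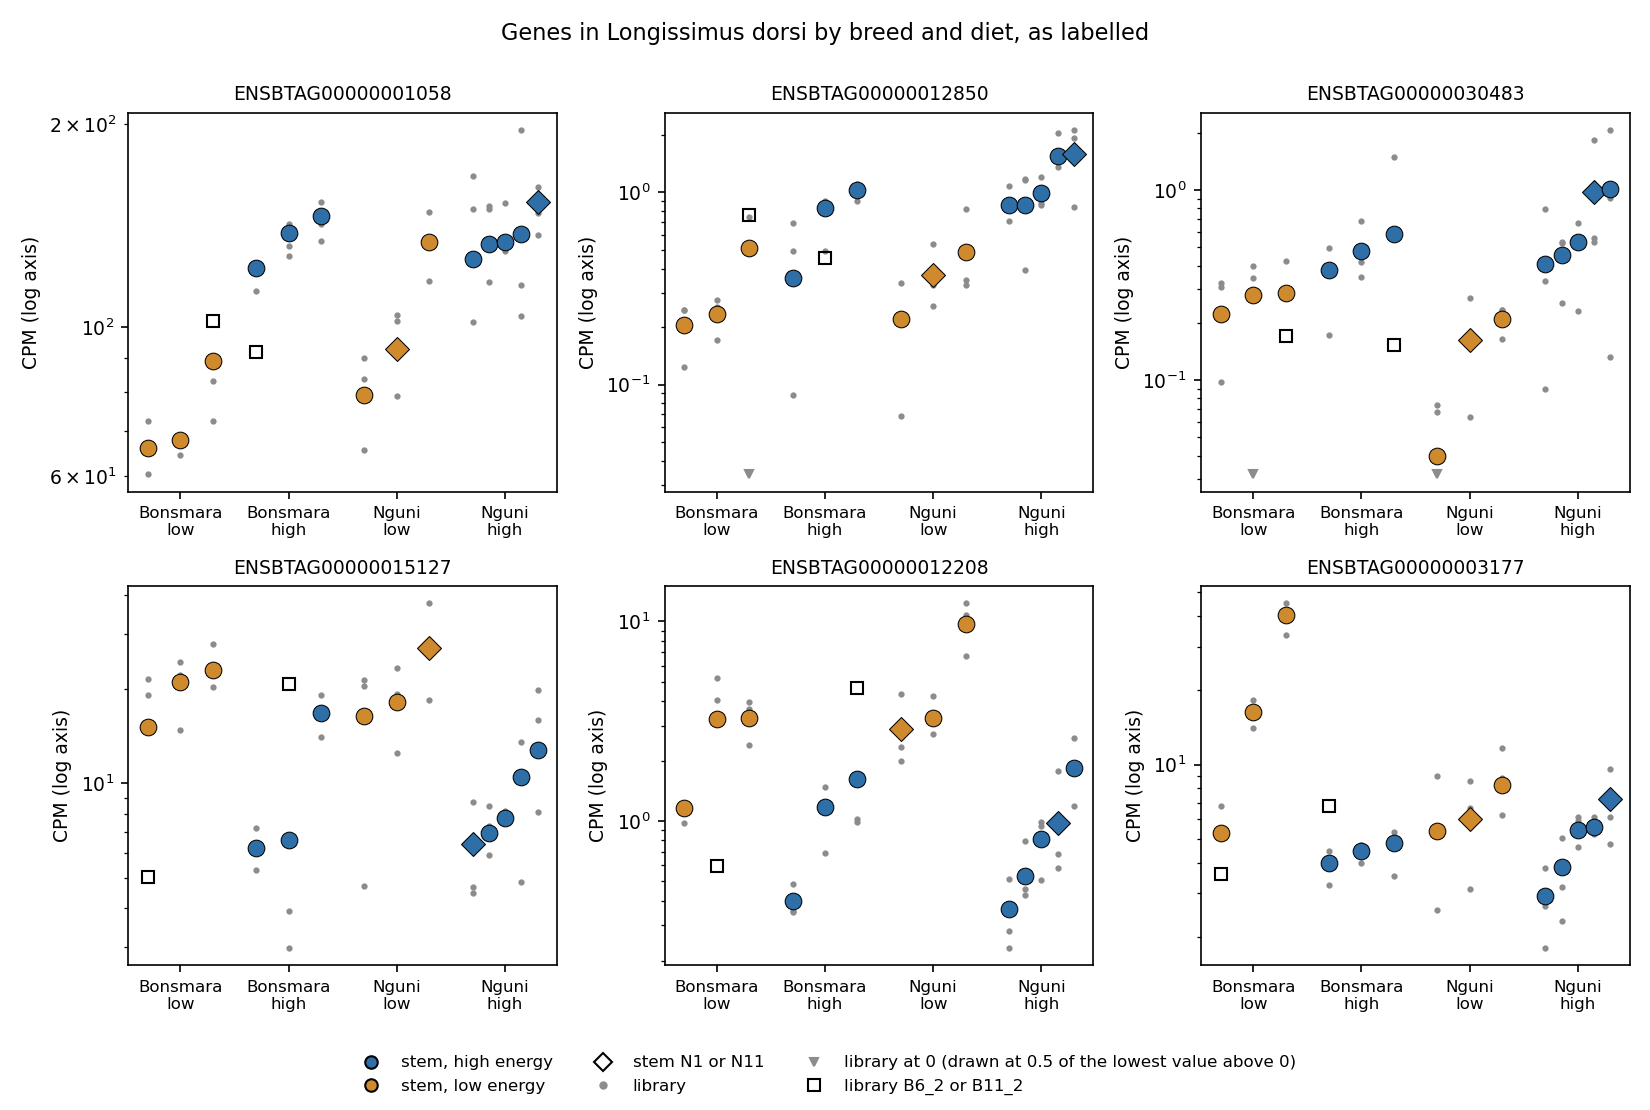
CPM of the 6 genes on a log axis by labelled breed and diet. Large symbols are stems (diamonds for N1 and N11, whose diet differs between labels and tables), small dots are single libraries, open squares are libraries B6_2 and B11_2, and triangles are libraries at 0 drawn at 0.5 of the gene's lowest library value above 0. For ENSBTAG00000015127, B6_2 at 20.7 CPM lies among the low energy stems and B11_2 at 5.03 CPM lies below all low energy stems.

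As a group, with the labelled diets, all stems on high energy lay above all on low energy in Bonsmara for ENSBTAG00000001058 and ENSBTAG00000030483, where 8.68% of the 13219 tested genes had this order. All lay below for ENSBTAG00000003177, an order that 9.15% of genes had. In Nguni the high energy stems lay above for ENSBTAG00000012850 and ENSBTAG00000030483, against 0.772% of genes, and below for ENSBTAG00000015127 and ENSBTAG00000012208, against 1.07%. ENSBTAG00000030483 was apart in the same direction in both breeds, as were 0.0227% of genes with high energy above, and none of the 6 with high energy below (0.00756% of genes). These counts follow from the way the genes were chosen, and nothing is read from them beyond the order of the stems.

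Without libraries B6_2 and B11_2, 5 of the 6 genes had Bonsmara diet groups that did not overlap, ENSBTAG00000012850 by a very narrow margin. High energy was above for ENSBTAG00000001058, ENSBTAG00000012850 and ENSBTAG00000030483 (9.21% of genes) and below for ENSBTAG00000015127 and ENSBTAG00000003177 (9.36% of genes). With N1 and N11 exchanged, none of the 6 genes had Nguni groups apart in either direction, an order that 0.862% of genes had with high energy above and 0.938% with high energy below. None was apart in both breeds then, against 0.0151% of genes with high energy above and 0.0151% with high energy below.

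The median absolute log2 difference between diets over the 6 genes was 1.13 in Bonsmara and 1.46 in Nguni, beside 0.30 and 0.22 over all tested genes. With N1 and N11 exchanged it was 0.32 in Nguni, beside 0.27 over all tested genes. Without B6_2 and B11_2 it was 1.42 in Bonsmara, beside 0.32 over all genes. The genes were chosen by these differences with labelled diets, which favoured large values there and a fall after the exchange. Neither is read as a trait of the genes or as a sign of which pairing holds. With labelled groups, each of the 6 genes kept its direction in each breed under 21 alternatives, a direction that their choice had favoured. The DESeq2 test and the limma fits were not among these 21 alternatives. Many of these alternatives left out stems or libraries of the other breed only, which could hardly move the value.

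**Figure D3:**
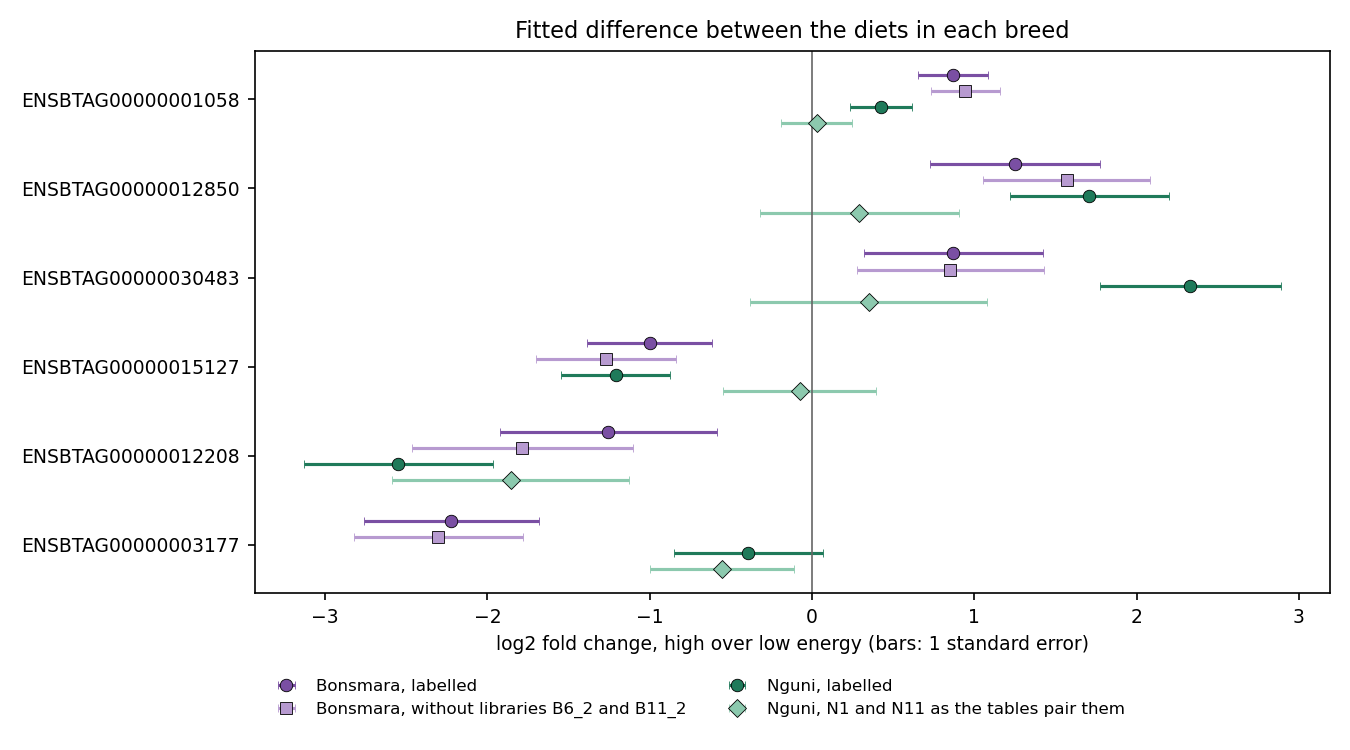
Fitted log2 difference of high over low energy for the 6 genes (points) with 1 standard error on either side (bars), in Bonsmara with and without libraries B6_2 and B11_2 and in Nguni with labelled groups and with N1 and N11 as the tables pair them. With the tables' pairing the Nguni values of ENSBTAG00000001058, ENSBTAG00000012850, ENSBTAG00000030483 and ENSBTAG00000015127 lie within 1 standard error of 0.

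The 10 tests below used a contrast by which the gene had not been listed, with edgeR's quasi-likelihood test adjusted over 13219 genes. The unequal Nguni groups leave the breed contrast, and the difference between breeds of the diet effect, weakly related to the contrasts that chose the genes. A gene was tested for diet in a breed only where it was absent from that breed's list, which favours a small value. Genes tested for a difference of the diet effect were listed for the average and for neither breed, which favours similar effects in both. Nothing is therefore concluded from a lack of difference in those diet tests. The first question was whether the genes differed between breeds, averaged over diets. The log2 difference of Nguni over Bonsmara was 0.23 (SE 0.14, edgeR adjusted p = 0.673) for ENSBTAG00000001058, 0.42 (SE 0.35, p = 0.768) for ENSBTAG00000012850 and -0.25 (SE 0.38, p = 0.882) for ENSBTAG00000030483. It was -0.05 (SE 0.26, edgeR adjusted p = 0.973) for ENSBTAG00000015127, 0.40 (SE 0.44, p = 0.831) for ENSBTAG00000012208 and -0.74 (SE 0.35, p = 0.572) for ENSBTAG00000003177. None of the 6 genes passed, and of all genes edgeR called 0% in this contrast. Single stems moved these values. Without B51 that of ENSBTAG00000003177 was -0.28, and without N215 that of ENSBTAG00000030483 was -0.00039. Without N33 that of ENSBTAG00000012208 was 0.013 and that of ENSBTAG00000001058 was 0.12. Without B11 that of ENSBTAG00000012850 was 0.68, and without B25 that of ENSBTAG00000015127 was 0.27. At an unadjusted p under 0.05 there were 1144 genes (8.65%) in edgeR and 0 of the 6. With N1 and N11 exchanged it was 1 of the 6 beside 9.34% of genes, and without B6_2 and B11_2 it was 1 beside 8.03%. DESeq2 called 14 genes, limma voom on libraries with the stem as a random block 16 and limma voom with quality weights 2. None of these calls was one of the 6. Limma on libraries tested 5 of the 6. Their adjusted p lay between 0.437 and 1 over all alternatives.

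The second question was whether genes listed for one breed also differed by diet in the other. ENSBTAG00000003177, listed for Bonsmara, had a log2 difference of -0.39 (SE 0.46, edgeR adjusted p = 1) in Nguni, where edgeR called 0% of genes, 400 had an unadjusted p under 0.05 and DESeq2 called 1 gene. Its adjusted p was 0.846 to 1 over the alternatives. ENSBTAG00000030483, listed for Nguni, had a log2 difference of 0.87 (SE 0.55, edgeR adjusted p = 0.888) in Bonsmara, where edgeR called 0% of genes, 508 had an unadjusted p under 0.05 and DESeq2 called 2 genes. Its adjusted p was 0.148 to 1 over the alternatives, lowest in limma voom with quality weights. Neither gene was shown to differ by diet in the breed for which it had not been listed, and neither was shown to be unchanged there. Over all tested genes, 661 would be expected at an unadjusted p under 0.05 with no differences, more than the 400 and 508 in edgeR.

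The third question was whether the diet difference differed between breeds for the genes listed only for the average. The log2 difference in Nguni minus that in Bonsmara was 0.46 (SE 0.70, edgeR adjusted p = 0.912) for ENSBTAG00000012850 and -0.21 (SE 0.51, edgeR adjusted p = 0.951) for ENSBTAG00000015127. In this contrast edgeR called 0% of genes, and DESeq2 and limma called 0. In edgeR 552 genes had an unadjusted p under 0.05, beside 661 expected with no differences. The adjusted p ran from 0.666 to 1 and from 0.582 to 1 over the alternatives. The sign turned with N1 and N11 exchanged, to -0.96 for ENSBTAG00000012850 and 0.92 for ENSBTAG00000015127, and for the latter also without B6_2 and B11_2, to 0.059.

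Pooled over stems, the 3 libraries of a stem differed by more than counting error for all 6 genes. In single stems the SD of the libraries was above that of counting error in 13 of 14 for ENSBTAG00000001058 and ENSBTAG00000015127. It was above in 12 for ENSBTAG00000003177 and 10 for ENSBTAG00000012208, but in only 9 for ENSBTAG00000030483 and 6 for ENSBTAG00000012850. With 3 libraries per stem, counting error alone would put some stems above it, so these counts are no test. The pooled SD of log2 CPM within stems was 0.23 for ENSBTAG00000001058, where counting error alone would give 0.038, and 0.72 against 0.12 for ENSBTAG00000015127. It was 0.48 against 0.17 for ENSBTAG00000003177 and 0.72 against 0.39 for ENSBTAG00000012208. For the sparsest genes counting error made up more of it, with 0.91 against 0.60 for ENSBTAG00000012850 and 1.10 against 0.72 for ENSBTAG00000030483. The excess of ENSBTAG00000012850 lay largely in B11 (SD 2.38, with a library of 0 counts) and B199 (SD 1.46, with a library of 2 counts). A difference between its libraries beyond counting was thus not shown across stems. The median over all tested genes was 0.44, so ENSBTAG00000001058 alone lay below it.

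The share of the variance between libraries of 1 group that lay between stems (the intraclass correlation) was 0.70 for ENSBTAG00000003177 and 0.56 for ENSBTAG00000012208, beside a median of 0.42 over all tested genes. It was 0.35 for ENSBTAG00000001058, 0.22 for ENSBTAG00000015127, 0.027 for ENSBTAG00000012850 and 0 for ENSBTAG00000030483. For the last, stems of 1 group differed no more than their libraries did. Its libraries ran from 0.132 to 2.07 CPM in N37 and from 0.152 to 1.49 in B6, and it had no count in B51_1 and N215_3, which allows up to 0.253 and 0.144 CPM by a limit of 3 counts.

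The spread within stems of 2 genes fell clearly when 2 libraries were left out. Without libraries B6_2 and B11_2, the SD within stems was 0.54 for ENSBTAG00000015127 and 0.48 for ENSBTAG00000012208, while the other 4 genes had 0.22, 0.88, 1.07 and 0.46 in the order ENSBTAG00000001058, ENSBTAG00000012850, ENSBTAG00000030483 and ENSBTAG00000003177. In N37, library N37_1 had 196 CPM of ENSBTAG00000001058 where N37_2 had 104 and N37_3 had 115. Without N008_3 and N215_2 the diet differences in Nguni were 0.44, 1.72, 2.31, -1.12, -2.50 and -0.34 on the log2 scale, in the order in which the genes were described above. Leaving out N37_1 and N1_3 as well as B6_2 and B11_2 gave diet differences in Nguni of 0.40, 1.81, 2.56, -1.25, -2.60 and -0.47 in the same order.

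**Figure D4:**
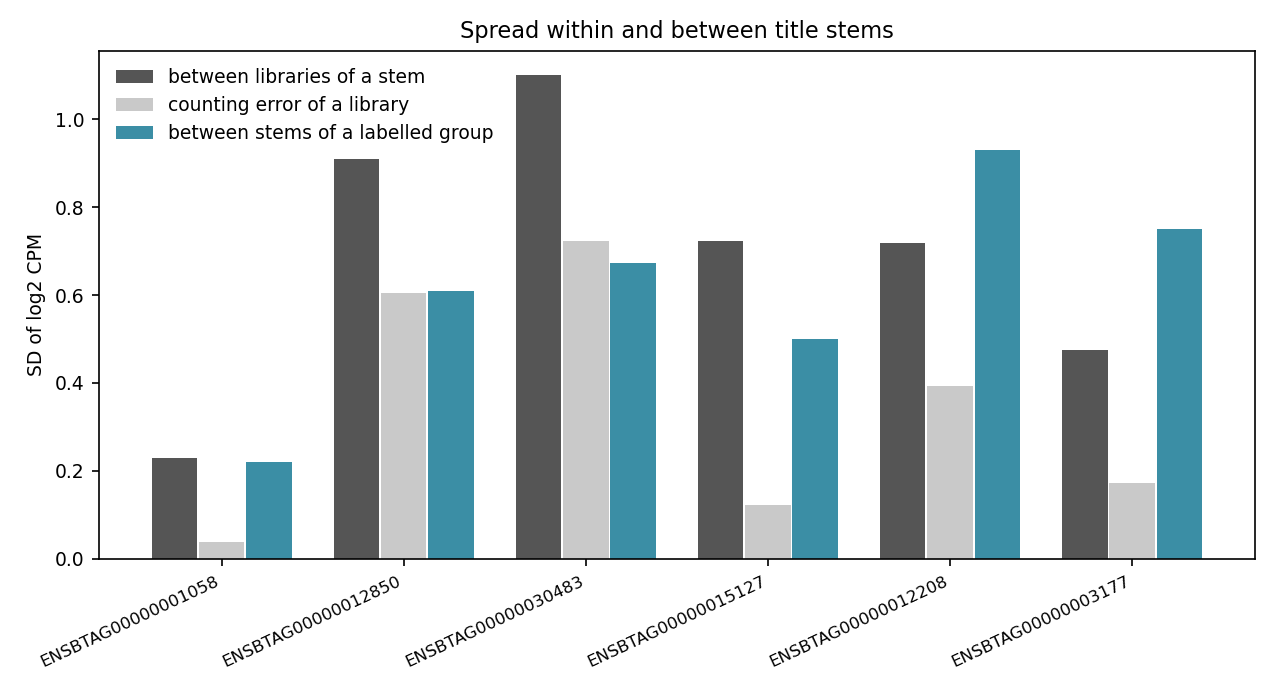
SD of log2 CPM of the 6 genes between the 3 libraries of a stem, from counting error of a library alone, and between summed stems of a labelled group. ENSBTAG00000003177 and ENSBTAG00000012208 varied more between stems (0.75 and 0.93) than within them, and ENSBTAG00000012850 and ENSBTAG00000030483 more within stems (0.91 and 1.10). Sums over 3 libraries have less counting error than single libraries, which lowers the SD between stems beside that within them.

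Whether the genes moved together among stems of 1 group, a measure that the diet contrasts do not use, was tested for 15 pairs over 14 stems with group means removed, by an exact permutation of stems within groups (25920 arrangements, two-sided). No pair passed an adjusted p under 0.05. The only pair with an unadjusted p under 0.05 was ENSBTAG00000012850 with ENSBTAG00000030483, with Pearson's r = 0.54 (exact permutation p = 0.0386, adjusted 0.341) and Spearman's rho = 0.59 (p = 0.0274, adjusted 0.411). Without the 2 stems farthest from the median, B199 and B11, r was 0.58. The highest r was 0.65, for ENSBTAG00000001058 with ENSBTAG00000030483 (exact permutation p = 0.102, adjusted 0.341), with rho = 0.50 (p = 0.111) and r = 0.60 without N33 and B11. The lowest was -0.53, for ENSBTAG00000015127 with ENSBTAG00000012208 (exact permutation p = 0.114, adjusted 0.341). Its rho was -0.46 (exact permutation p = 0.173), r was -0.31 without B25 and N008, and the sign turned with N1 and N11 exchanged (r = 0.33). That exchange leaves the labelled diet difference of N1 and N11 in the deviations.

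The genes most like each of the 6 were taken by Pearson's r of log2 CPM over the 14 stems among 10419 genes with a mean of at least 1 CPM. This r holds the diet differences that chose the 6 genes and all stems' shared scaling, so it is a description. ENSBTAG00000015127 had the closest ones, ENSBTAG00000018352 (r = 0.91, and 0.82 with group means removed) and ENSBTAG00000001618 (0.89 and 0.90). For ENSBTAG00000003177 they were ENSBTAG00000007865 (0.87 and 0.87) and ENSBTAG00000001864 (0.87 and 0.78). For ENSBTAG00000001058 they were ENSBTAG00000017068 (0.87 and 0.83) and ENSBTAG00000000103 (0.86 and 0.89).

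ENSBTAG00000012850 was most like ENSBTAG00000008654 (0.83 and 0.68) and like ENSBTAG00000001058, another of the 6 genes (0.82 and 0.60). ENSBTAG00000030483 was most like ENSBTAG00000006008 (0.82 and 0.77) and ENSBTAG00000019971 (0.81 and 0.54). ENSBTAG00000012208 was most like ENSBTAG00000006832 (0.79 and 0.58) and ENSBTAG00000033460 (0.78 and 0.53).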

How the data were processed

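RNA of Longissimus dorsi was sequenced from TRIzol extracts with the Illumina TruSeq RNA kit, per the labels' protocols. Trimmomatic, FastQC, Salmon and DESeq2 appear, without versions, in the submitters' processing notes. The sources used here do not give the genome build, annotation or strand setting, so overlapping or near-identical genes may share counts. The values used are the estimated counts per gene that the authors deposited in 4 tables, which were whole numbers as deposited. Each of the 42 libraries stands in 2 tables with identical values and was taken once. The labels describe 56 samples, and 14 were not analysed here.

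Labels gave the groups, and counts were summed over each stem. After filterByExpr of edgeR with a minimum count of 10, 13219 genes with 99.97% of all counts were left, and TMM was used for scaling. CPM was computed from the summed counts. A robust quasi-likelihood fit in edgeR 4.0.16 under R 4.3.3 had a mean for each of the 4 groups and 10 residual degrees of freedom. Two-sided p-values were adjusted over all genes by Benjamini-Hochberg, and the SE is the log2 difference divided by the root of its F value. Logarithms of single values had 0.5 counts added. In simulated counts for the breed contrast over 13051 genes, 191 of 200 genes changed 4-fold were called, and 16 of 12851 unchanged genes. The changed genes were drawn only from genes with higher counts than ENSBTAG00000012850 and ENSBTAG00000030483 had on average. The simulation therefore does not show how often such sparse genes, or differences smaller than 4-fold, would be called. Limits from a count of 3 and counting errors cover counting only. Alternatives were DESeq2 1.42.0, limma 3.58.1 (voom with quality weights, or on libraries with the stem as a random block), DESeq2 size factors, plain totals, no filter, each stem left out, N1 and N11 exchanged, and libraries left out. Those without B6_2 and B11_2, and plain totals for the tests, were chosen after seeing the data.

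The 6 genes and all lists were chosen with earlier results of these data known. The genes named are these 6 and, for each, the 2 most alike by correlation. Lists of pathway genes and cell type markers could not be used without gene names.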

Additional observations from a re-analysis of the deposited data

How the results depend on the processing

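With labelled groups, the diet differences of the 6 genes kept their sign in 252 of 252 alternatives, DESeq2's test and limma not among them. Many of these left out stems or libraries of the other breed only, which could hardly move the value. The choice of the genes had also favoured the sign, so the count is no measure of robustness. With N1 and N11 exchanged as the tables pair them, the log2 difference in Nguni became 0.030 for ENSBTAG00000001058, 0.29 for ENSBTAG00000012850, 0.35 for ENSBTAG00000030483 and -0.076 for ENSBTAG00000015127. Choosing the genes by the labelled diets had favoured a fall in size after the exchange. Leaving out 1 stem at a time gave -1.63 to -0.75 for ENSBTAG00000015127 in Bonsmara and 0.28 to 0.68 for ENSBTAG00000001058 in Nguni. The cause was not tested.

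Of 238 alternatives of the 10 tests, 19 turned the sign and 0 passed an adjusted p under 0.05. For breed, the exchange of N1 and N11 gave 0.35 for ENSBTAG00000030483. ENSBTAG00000015127 gave 0.085 without libraries N008_3 and N215_2, 0.033 without B6_2, B11_2, N37_1 and N1_3, 0.024 with plain totals, 0.0049 in limma on libraries and -0.18 to 0.27 without 1 stem. For the difference between breeds of the diet effect, ENSBTAG00000012850 gave -0.96 with the exchange and -0.069 in limma with quality weights. ENSBTAG00000015127 gave 0.92 with the exchange, 0.059 without B6_2 and B11_2, 0.014 without all 4 libraries, 0.082 with plain totals and -0.46 to 0.43 without 1 stem. Plain totals moved the median over all genes by -0.21 for diet in Bonsmara and by 0.23 for the difference between breeds of the diet effect. Genes called for breed, 0 in edgeR, were 14 in DESeq2, 2 in limma with quality weights, 16 in limma on libraries and 0 to 1 without 1 stem. DESeq2 called 1 gene for diet in Nguni and 2 in Bonsmara. Covariation had 0 pairs called under every alternative, with a smallest adjusted p of 0.0527 in the exact permutation test with the exchange. The exchange leaves the labelled diet difference of N1 and N11, by which the genes were chosen, in the deviations. That value therefore says nothing on covariation apart from diet. No paired analysis was possible because title suffixes number libraries within a stem and nothing pairs stems across groups. With 2 to 85 counts per stem, ENSBTAG00000012850 and ENSBTAG00000030483 are limited most by depth.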
